A study of Danio rerio with 30 samples.

Results

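Claudins are the membrane proteins that build the strands of tight junctions, and the genes described here are those of the claudin family in whole zebrafish larvae. They were chosen by name and by depth: the symbol begins with cldn, and the gene had at least 10 reads in at least 3 of the 30 RNA-seq libraries. Of 31846 gene symbols, 34 began with cldn and 27 of these passed. The 7 that did not were cldn10a, cldn10l2, cldn17, cldn18, cldnd, cldng and cldnj, with 2 (cldn18) to 129 reads (cldng) over all libraries together. The rule itself used no measured difference between groups, but it was set with earlier results of these data known.

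The larvae were of the AB wild-type strain and were taken whole at 120 hours post fertilization (hpf). The 9 treated groups had been given methylparaben (MtP), ethylparaben (EtP) or propylparaben (PrP), each at the labels BMD5, BMD5/10 and BMD5/50. The tenth group, Control, had no paraben. Each group had 3 libraries, numbered 1 to 3 in the labels. The parabens are preservatives, esters of p-hydroxybenzoic acid whose alkyl chain lengthens from methyl through ethyl to propyl. Neither the concentration that a label stands for nor the pooling of larvae is given in the labels, so a shared label need not mean a shared concentration.

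A tight junction seals the gap between neighbouring epithelial or endothelial cells. Some claudins tighten that seal, others form pores through which selected ions or water pass between the cells, and each tissue uses its own mix. In a larva, claudins serve the skin that faces the water, the gut lining, the vessels of the brain, the myelin sheaths and the kidney tubules and ionocytes. The genes were grouped by that knowledge into 7 epidermal claudins (cldn1, cldnb, cldne, cldnf, cldni, cldn23a and cldn23b) and 5 gut claudins (cldn15a, cldn15b, cldn15la, cldn15lb and cldnc). The 2 brain barrier claudins were cldn5a and cldn5b, and the 4 myelin and nervous system claudins were cldnk, cldn11a, cldn11b and cldn19. There were 3 kidney and ionocyte claudins (cldn2, cldnh and cldn10b) and 6 others. No zebrafish claudin could be assigned to muscle with certainty, so the muscle list was empty and 24 skeletal muscle markers were followed in its place.

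Each library held between 9711814 and 24468093 reads. Of the genes, 18543 could be tested, including all 27 claudins. Libraries numbered 1 differed from those numbered 2 and 3 in a large share of genes, so results that change without them are given both ways. Markers of every tissue named were present, with 0 of the genes on each marker list at 0 in all libraries. The labels do not say whether libraries of a group came from separate clutches, and the p-values therefore reflect only the variation among these libraries, which may be technical.

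Levels are given as TPM, a relative abundance corrected for gene length and library size, with the transcripts of a gene added up. The claudin with the highest mean level was cldni, an epidermal claudin, at 33.3 TPM over the 30 libraries, with a range of 10.4 to 56.2 TPM. It was followed by cldn7a, a claudin of many epithelia, at 16.0 TPM and by cldnb, which marks skin and other epithelia of the larva, at 15.0 TPM. The next were cldn15la, a gene of the gut lining, at 14.4 TPM and cldn1, the main sealing claudin of mammalian skin, at 13.5 TPM. These 5 genes held 48.5% of the summed claudin TPM. The lowest were cldn5a at 0.391 TPM, cldn15b at 0.349 TPM and cldn23b at 0.231 TPM, with 208, 273 and 286 reads over all libraries.

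Within the 3 Control libraries the highest genes were cldni at 39.4 ± 12.9 TPM, cldnb at 25 ± 14.5 TPM and cldn1 at 14.8 ± 3.93 TPM (SD, n = 3). The Control ranges overlapped in 24 of the 26 neighbouring pairs of that order. Such overlap does not tell whether a gene was above the next one within each library, which was not tested. The exceptions were cldn11b at 2.76 ± 0.24 TPM above cldn15lb at 2.16 ± 0.34 TPM, and cldn15lb above cldnf at 1.04 ± 0.34 TPM. Epidermal claudins made up 39.3 ± 8.07% of the summed claudin TPM over the 30 libraries (SD), gut claudins 11 ± 3.09% and brain barrier claudins 6.12 ± 2.81%. With RPKM in place of TPM the epidermal share was also 39.3%. It had to be the same, since the units differ within a library only by a constant factor.

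**Figure D1:**
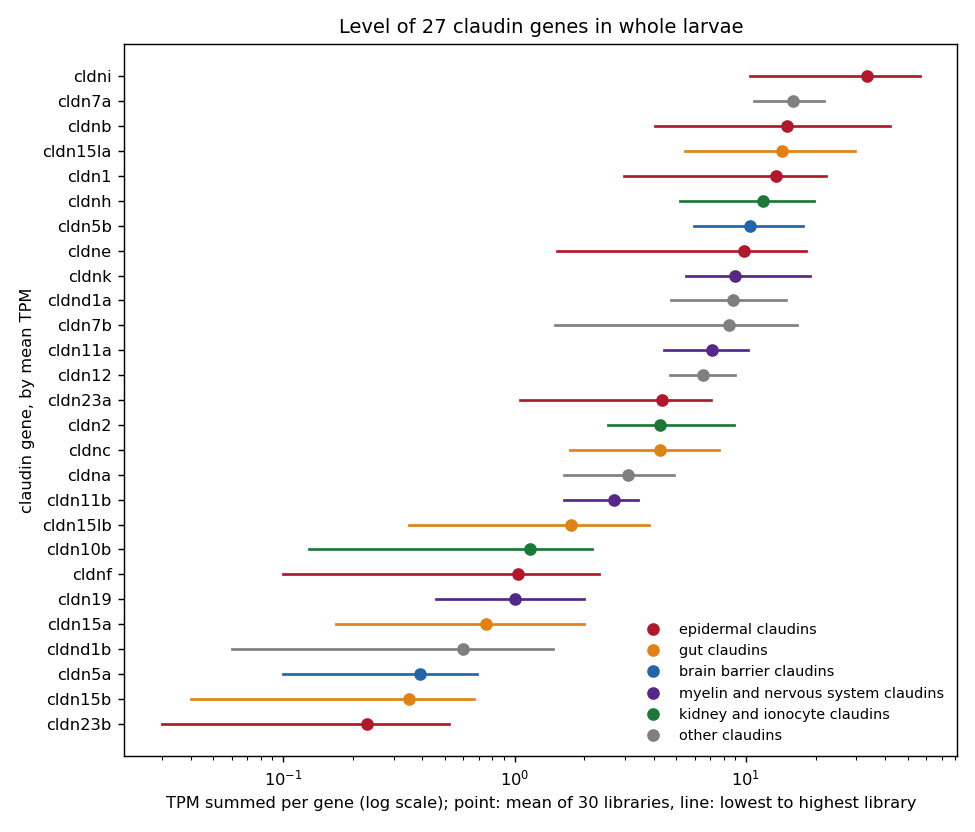
Mean TPM of each of the 27 claudin genes over the 30 libraries (points, log axis in TPM) with the lowest and highest library (lines), coloured by tissue list. Genes run from cldni at 33.3 TPM at the top to cldn23b at 0.231 TPM at the bottom, and genes of every list are spread over the order.

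Claudins differed between libraries of the same group. In libraries numbered 1 against those numbered 2 and 3, in a fit that compares them within groups, 22 of the 27 claudins passed an adjusted p of 0.05, with 20 lower and 2 higher. Of all tested genes, 10461 (56.4%) passed, 5385 (29%) lower and 5076 (27.4%) higher. The median log2 difference was -0.66 over the 27 claudins and 0.03 over all genes. CPM (read counts scaled to library size by TMM) are used for these comparisons, and a difference in bulk RNA cannot tell fewer cells of a type from less RNA per cell.

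All 7 epidermal claudins fell in the libraries numbered 1, with a median log2 difference of -1.31. The gene cldne, of the larval skin, had a lowest, median and highest level of 2.38, 8.76 and 13.9 CPM in the 10 libraries numbered 1, against 10.7, 24.5 and 33.3 CPM in the 20 numbered 2 and 3. Its library numbered 1 was below both others in 10 of 10 groups, while the ranges over all groups overlapped. The difference was -1.58 ± 0.20 on the log2 scale (SE, edgeR quasi-likelihood test, adjusted p = 7.72e-07).

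For cldn1 the libraries numbered 1 had 1.05, 2.76 and 4.79 CPM, against 4.65, 7.34 and 10.4 CPM in those numbered 2 and 3. The ranges met only at their ends, and the library numbered 1 was the lowest of its group in 10 of 10 groups (log2 -1.36 ± 0.17). The gene cldni had 13.9, 31.9 and 71.8 CPM, against 32.2, 62.7 and 85.9 CPM. Here the library numbered 1 was below both others in 7 groups and above both in 2, and the ranges overlapped widely (log2 -0.91 ± 0.20, adjusted p = 0.000396).

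The remaining epidermal genes fell in the same comparison. The low gene cldnf had 0.14, 0.75 and 1.19 CPM in libraries numbered 1, against 0.91, 2.21 and 3.79 CPM in the others (log2 -1.56 ± 0.24). The neighbouring genes cldn23a and cldn23b had log2 differences of -1.21 ± 0.19 and -1.31 ± 0.27, with medians of 4.10 and 0.24 CPM against 8.69 and 0.90 CPM. The smallest difference of the list was that of cldnb at -0.61 ± 0.20 (adjusted p = 0.0113), with 3.01, 8.79 and 31.4 CPM against 8.46, 14.9 and 18.6 CPM. The highest cldnb value of all 30 libraries belonged to a library numbered 1, that of Control.

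The 5 gut claudins also all fell, with a median of -1.13. The gene cldn15a, which zebrafish need to form a single gut lumen, had 0.74, 1.61 and 3.62 CPM in libraries numbered 1, against 2.97, 4.48 and 10.9 CPM in those numbered 2 and 3. Its library numbered 1 was lowest in 9 groups and highest in 1, MtP BMD5/10, and the ranges overlapped (log2 -1.41 ± 0.22, adjusted p = 9.05e-06).

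The gene cldn15la had 3.36, 6.02 and 8.98 CPM in libraries numbered 1, against 6.62, 11.7 and 24.1 CPM (log2 -1.13 ± 0.16, adjusted p = 2.78e-06). For cldn15lb the medians were 1.12 and 3.01 CPM (log2 -1.27 ± 0.24), and for cldnc 3.98 and 8.82 CPM (log2 -1.04 ± 0.12). Both of these were lowest in the library numbered 1 in 10 of 10 groups. The gene cldn15b, with 1 to 19 reads per library, differed by -0.77 ± 0.29 (adjusted p = 0.0279).

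Of the brain barrier claudins 1 rose and none fell. The gene cldn5b, whose mammalian counterpart seals the vessels of the brain, had 10.6, 11.5 and 15.2 CPM in libraries numbered 1, against 7.76, 10.6 and 14.2 CPM. Its library numbered 1 was above both others in 5 groups and below both in 2, and the ranges overlapped over most of their width. The rise was 0.24 ± 0.08 on the log2 scale (adjusted p = 0.0183). It no longer passed when any 1 of 5 libraries was left out, namely the libraries numbered 1 of EtP BMD5, EtP BMD5/10, EtP BMD5/50 and PrP BMD5/10 and the library numbered 3 of EtP BMD5/10, with a lowest log2 value of 0.14. For cldn5a, at 2 to 14 reads per library, the difference was 0.23 with a 95% interval of -0.27 to 0.72.

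All 4 myelin and nervous system claudins fell, with a median of -0.46. The gene cldnk, a marker of myelinating glia in zebrafish, had 6.51, 8.46 and 10.1 CPM in libraries numbered 1, against 7.70, 12 and 19.9 CPM (log2 -0.52 ± 0.09, adjusted p = 3.2e-05). Its library numbered 1 was lowest in 9 groups. The other log2 values were -0.61 ± 0.18 for cldn19, -0.40 ± 0.12 for cldn11a, whose mammalian counterpart is a claudin of myelin, and -0.34 ± 0.08 for cldn11b.

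Among kidney and ionocyte claudins, cldnh and cldn10b fell (log2 -0.80 ± 0.15 and -0.66 ± 0.25), while cldn2, a pore-forming claudin in mammals, differed by 0.19 with an interval of -0.10 to 0.48. Among the others, cldn7b fell by 1.32 ± 0.18 on the log2 scale and cldn7a, the more abundant of this pair, by 0.28 ± 0.07. The claudin domain gene cldnd1a rose: it had 24.6, 29.8 and 37.2 CPM in libraries numbered 1, against 13.3, 18.9 and 27.4 CPM. Its library numbered 1 was highest in 9 groups (log2 0.60 ± 0.09, adjusted p = 9.99e-06). For cldna, cldn12 and cldnd1b the values were -0.27, 0.04 and 0.36, none past the threshold.

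**Figure D2:**
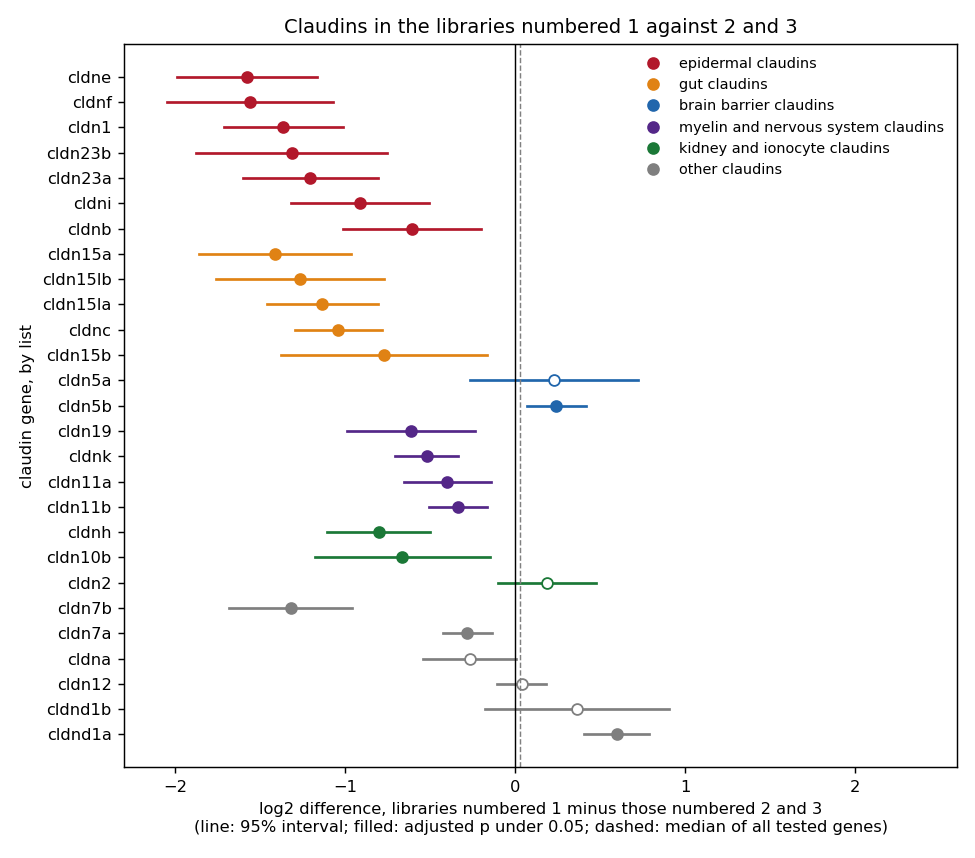
Log2 difference of each claudin between the 10 libraries numbered 1 and the 20 numbered 2 and 3 (points, with 95% intervals as lines), by tissue list; filled points have an adjusted p under 0.05 and the dashed line is the median of all tested genes, 0.03. Epidermal and gut claudins all lie left of 0, from -1.58 for cldne to -0.61 for cldnb, while both brain barrier claudins, cldn2, cldn12, cldnd1a and cldnd1b lie right of 0, of which cldn5b and cldnd1a passed.

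Markers of the tissues moved in the same libraries, and their part in the claudin differences was not tested. The 26 epidermis markers all fell, with a summed level of 4479.6 to 14293 CPM in libraries numbered 1 against 13771 to 29427 CPM in the others (median log2 -1.27). All 18 intestine markers fell (summed 197 to 379 CPM against 468 to 2243 CPM, median -1.60), as did all 24 skeletal muscle markers (54961 to 130211 CPM against 151788 to 228900 CPM, median -0.93). Of 16 endothelium and blood-brain barrier markers 12 fell and 2 rose (131.9 to 153.7 CPM against 149 to 228 CPM, median -0.50), whereas the brain barrier claudins summed to 11.1 to 15.8 CPM against 7.98 to 14.8 CPM. Of 12 myelin glia markers 4 fell and 3 rose (271 to 324 CPM against 267 to 408 CPM, median -0.07). Of 17 markers of ionocytes and pronephros 13 fell and 3 rose (median -1.20, while their summed level was 368 to 409.8 CPM against 322 to 393 CPM), and of 17 neuronal markers 14 rose and 2 fell (4893 to 5682 CPM against 3818 to 4780 CPM).

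The summed level of the epidermal claudins was also set against that of the epidermis markers within each library. The log2 ratio of summed epidermal claudin CPM to summed epidermis marker CPM had a lowest, median and highest value of -7.85, -7.33 and -6.78 in libraries numbered 1, against -8.01, -7.55 and -7.38 in those numbered 2 and 3. The ranges overlapped. The gut claudins against the intestine markers gave -5.02, -4.49 and -3.97, against -5.69, -4.92 and -4.27. Both pairs of ranges overlapped, with the higher median in libraries numbered 1. The highest ratios, -6.78 and -3.97, were those of the Control library numbered 1. The epidermal sum is weighted to its most abundant gene, cldni, which had a log2 difference of -0.91 between the numbers. For cldnb the difference was -0.61, and for the rest of that list it ran from -1.21 (cldn23a) to -1.58 (cldne). The ratio of the sums therefore does not describe each gene. The brain barrier claudins against the endothelium and blood-brain barrier markers gave a median of -3.51, against -3.88. The myelin and nervous system claudins against the myelin glia markers went the other way, with a median of -3.81, against -3.55. The ranges of these ratios overlapped as well.

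The claudins share the tight junction with other proteins, of which 44 genes were tested, and 17 of these fell and 10 rose in the libraries numbered 1 (median log2 -0.13), beside the 29% lower and 27.4% higher of all genes. Those that fell included the strand proteins oclna and oclnb (-0.95 ± 0.13 and -1.35 ± 0.19), the tricellular junction gene marveld2b (-1.29 ± 0.19) and the scaffold gene tjp3 (-1.20 ± 0.16). The other scaffold genes of that family rose, with 0.26 ± 0.04 for tjp1a, 0.34 ± 0.05 for tjp1b, 0.44 ± 0.05 for tjp2a and 0.17 ± 0.05 for tjp2b. The 6 genes given for the junction list that were absent from the table of symbols are not analysed here.

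The gap between the library numbered 1 and the other 2 was also set between treated groups and Control. The Control gap holds a single library numbered 1, whose own variation the fit cannot estimate. The p-values rest on the spread between libraries 2 and 3 of all groups, so they compare that library with the treated ones and not the conditions. Of the claudins 1 passed, cldnb. Of all tested genes, 60 (0.324%) passed, 52 (0.28%) of them with a lower gap in treated groups. In the library numbered 1, cldnb had 3.01 to 14.5 CPM over the 9 treated groups (median 7.75 CPM), against 31.4 CPM in Control. All 9 treated libraries numbered 1 were below that of Control, which itself stood above the 16.1 and 18.0 CPM of Control libraries 2 and 3. Taken by group, the log2 gap of cldnb ran from -1.94 to 0.24 in treated groups (median -0.56), against 0.87 in Control. The treated gap minus the Control gap was -1.80 ± 0.24 on the log2 scale (SE, edgeR quasi-likelihood test, adjusted p = 0.00761). Each gap rests on 1 library against 2, and without Control replicate 2 the value was -1.73 and no longer passed (adjusted p = 0.114). In the same contrast 24 of 26 epidermis markers had negative values (median -0.57) and 0 passed, and their part in the result was not tested.

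The most abundant claudin had values of the same shape. In the libraries numbered 1, cldni had 13.9 to 54.2 CPM in treated groups (median 27.6 CPM), against 71.8 CPM in the 1 Control library. That library was also above all treated ones for several other claudins, such as cldn7b (14.8 against at most 10.7 CPM) and cldnc (7.72 against at most 4.41 CPM). For others, such as cldn1, it lay within the treated range, and for cldn7a it lay below it (13.6 against at least 13.7 CPM). For cldni the difference of the gaps was -1.44 ± 0.33 (edgeR quasi-likelihood test, adjusted p = 0.0753), which missed the threshold. DESeq2 and the fit with no filter on low counts called cldni. The difference was negative for 22 of the 27 claudins, among them 7 of 7 epidermal and 5 of 5 gut claudins, with a median of -0.83 against -0.01 over all genes. At an unadjusted p under 0.05 there were 13 claudins, against 2205 (11.9%) of all genes.

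**Figure D3:**
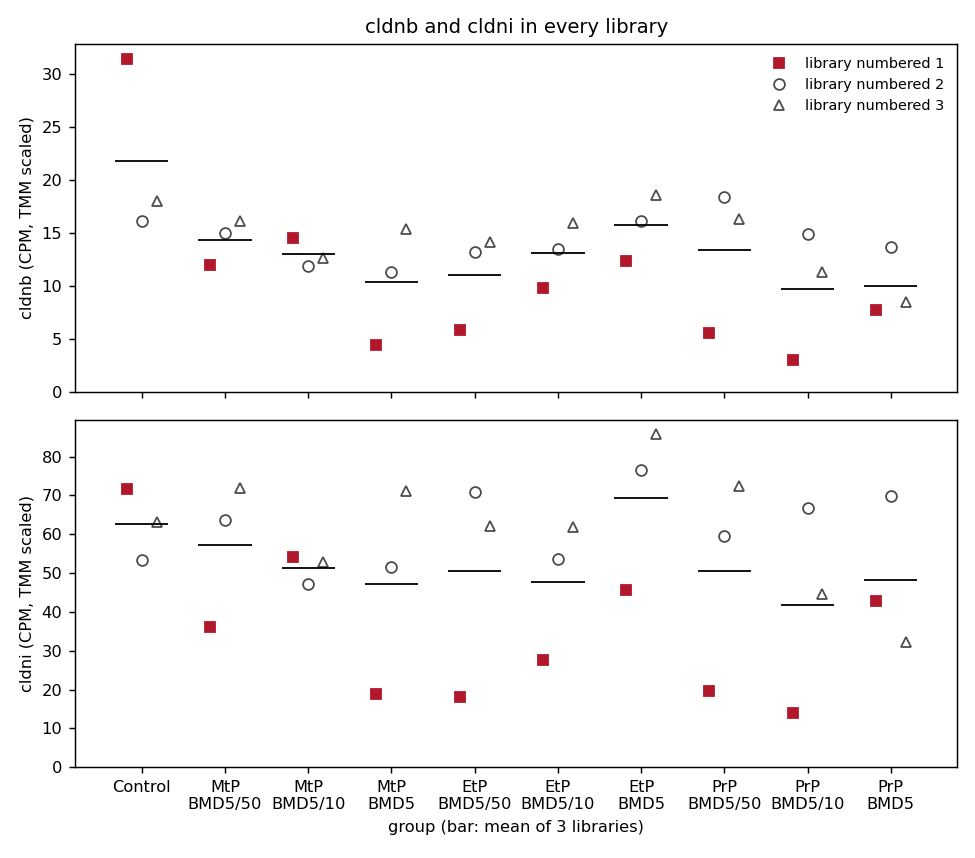
CPM of cldnb (top) and cldni (bottom) in every library by group, with Control at left and each compound from BMD5/50 to BMD5; squares, circles and triangles are the libraries numbered 1, 2 and 3 and bars are group means of 3 libraries. The cldnb square of Control lies at 31.4 CPM and those of the treated groups between 3.01 and 14.5 CPM.

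Against Control, no claudin passed in any of the 9 treated groups (edgeR quasi-likelihood test, 0 of 27 in each, 0% of all 18543 genes in each, lowest adjusted p of a claudin 0.999). DESeq2 also called 0. At an unadjusted p under 0.05 there were 12 claudin values in all. By group these were 0 in MtP BMD5/10 (1.81% of all genes) and PrP BMD5/50 (1.57%), and 1 each in MtP BMD5 (1.26%), MtP BMD5/50 (4.73%) and EtP BMD5 (2.05%). There were 2 each in EtP BMD5/10 (3.66%), PrP BMD5 (1.86%) and PrP BMD5/10 (2.5%), and 3 in EtP BMD5/50 (2.84%). The 12 were values of 3 genes, cldnb, cldn7a and cldnk. The 95% intervals were wide, with a median half-width of 1.07 to 1.12 log2 units, and 8 to 11 of the 27 claudins had an interval within 1 log2 unit of 0. This fit leaves the difference between the numbers in the spread. For BMD5 against BMD5/50 of MtP, EtP and PrP it gave median half-widths of 1.06, 1.09 and 1.12. With the number as a block these were 0.71, 0.70 and 0.72.

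Of these, cldnb had the lower value in 9 of 9 treated groups, with log2 fold changes of -0.48 (EtP BMD5) to -1.18 (PrP BMD5/10). It had 3.01, 14.9 and 11.3 CPM in the PrP BMD5/10 libraries numbered 1, 2 and 3 and 4.45, 11.3 and 15.4 CPM in MtP BMD5, against 31.4, 16.1 and 18.0 CPM in Control. In PrP BMD5 it had 7.75, 13.7 and 8.46 CPM, and in EtP BMD5/50 it had 5.85, 13.2 and 14.1 CPM. These are the 4 groups in which cldnb had an unadjusted p under 0.05, and their ranges did not overlap that of Control. The same held without such a p for MtP BMD5/10, EtP BMD5/10 and MtP BMD5/50. Their highest values were 14.5, 15.95 and 16.10 CPM, against a lowest Control value of 16.11 CPM. The ranges of EtP BMD5 (12.4, 16.1 and 18.6 CPM) and PrP BMD5/50 (5.57, 18.4 and 16.3 CPM) overlapped that of Control. An exact test of 3 libraries against 3 can give no p below 0.1. How many of all genes had ranges that did not overlap Control was not determined, so the cldnb ranges cannot be set against that share. The values rest in part on the first Control library: without it the 9 log2 fold changes ran from -0.82 to -0.13, all below 0. They ran, without the libraries numbered 1 of all groups, from -0.61 (PrP BMD5) to 0.018 (PrP BMD5/50), and 2 of the 9 were above 0, EtP BMD5 at 0.00447 and PrP BMD5/50. The 9 comparisons share the same 3 Control libraries.

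The other skin and gut genes had values on both sides of 0, none past the threshold. For all of them more groups were below 0 than above. Of the 9 groups, 8 were below 0 for each of cldni, cldn1, cldne, cldn23b, cldn15b, cldn15lb and cldnc. For cldnf 7 were below 0, for cldn23a and cldn15a 6, and for cldn15la 5. These counts include the libraries numbered 1. In libraries numbered 2 and 3 the cldni medians of MtP, EtP and PrP were 58.33, 66.60 and 63.16 CPM, against 58.26 CPM in Control. For cldnc they were 6.11, 9.97 and 9.08 CPM, against 8.68 CPM. For cldn1 and cldn15b all were below Control, and for cldne, cldn23b and cldn15lb they lay on both sides. The count of cldni therefore rests in part on the libraries numbered 1. Over the 9 groups the log2 fold changes of cldni ran from -0.59 to 0.14 and those of cldn1 from -0.66 to 0.05. Those of cldne ran from -0.45 to 0.21 and those of cldnf from -0.26 to 0.16. Those of cldn15a ran from -0.52 to 0.84, those of cldn15la from -0.47 to 0.64 and those of cldn15lb from -1.27 to 0.04. The brain barrier genes lay between -0.30 and 0.12 (cldn5b) and between -0.61 and 0.36 (cldn5a).

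The genes cldn7a and cldnk had values above 0 in most groups. The lowest, median and highest value of cldn7a was 13.7, 22.4 and 30.9 CPM in the 27 treated libraries, against 13.6, 17.4 and 19.4 CPM in Control. Its log2 fold changes ran from -0.01 to 0.63, above 0 in 8 of 9 groups. The myelin gene cldnk had 6.51, 11.3 and 19.9 CPM in the treated libraries, against 8.14, 8.71 and 9.17 CPM in Control. Its log2 fold changes ran from 0.04 to 0.77, above 0 in 9 of 9 groups. Both sets of treated libraries overlapped Control.

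**Figure D4:**
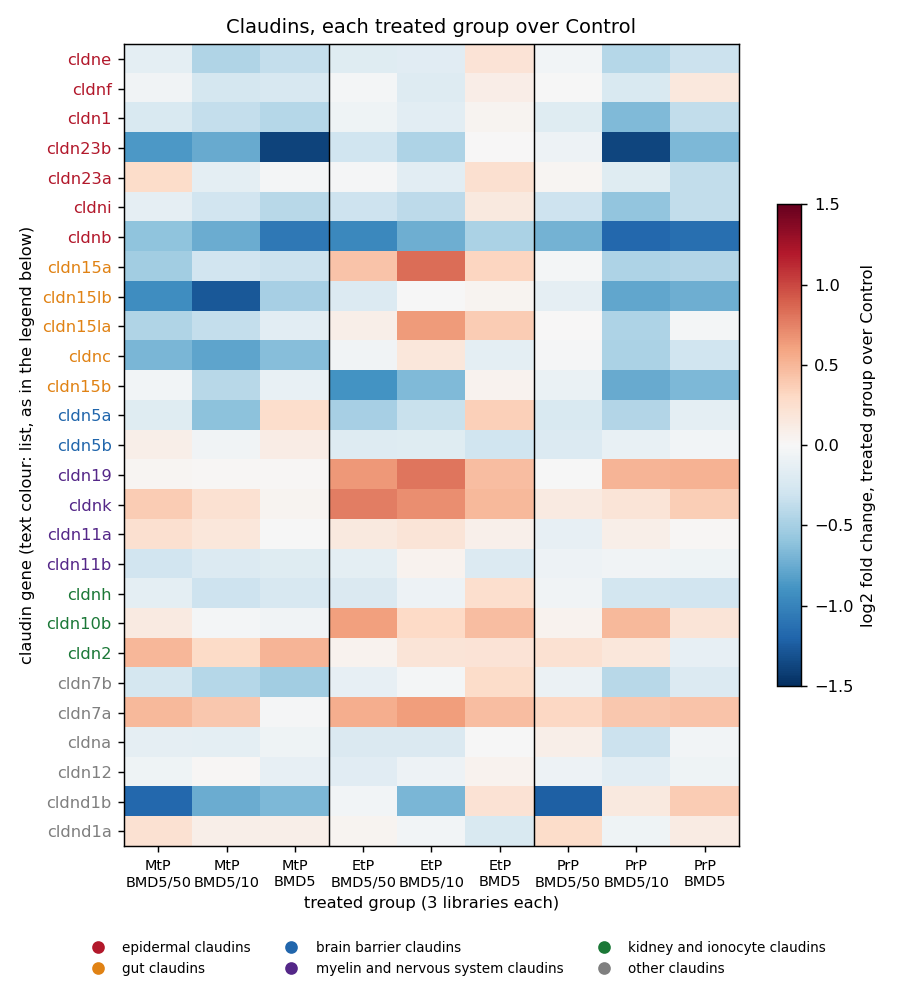
Log2 fold change of each claudin in each treated group over Control (colour scale from -1.5 to 1.5; rows are genes coloured by tissue list, columns run from BMD5/50 to BMD5 within each compound). The cldnb row is blue in all 9 columns, from -0.48 to -1.18, the cldnk row is red in all 9, and none of the values passed an adjusted p of 0.05.

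The label made no difference that passed the test. Between BMD5 and BMD5/50 of the same compound, 0 of 27 claudins passed for any compound (edgeR; 0% of all genes; DESeq2 also 0), with 1 in MtP (1.97% of all genes), 0 in EtP (0.825%) and 1 in PrP (3.48%) at an unadjusted p under 0.05. Those were cldn7a in MtP, at -0.49 ± 0.19 on the log2 scale with 13.7, 16.7 and 19.5 CPM at BMD5 against 17.9, 24.5 and 28.0 CPM at BMD5/50. In PrP it was cldnd1b, a low gene, at 1.61 ± 0.61 with 1.55, 0.91 and 1.91 CPM at BMD5 against 0.08, 0.84 and 0.48 CPM at BMD5/50. The cldnd1b groups, at 1 to 25 reads per library, did not overlap but nearly met, at 0.91 and 0.84 CPM, and those of cldn7a overlapped. In EtP the groups of the low genes cldn5a and cldn15b did not overlap either, without an unadjusted p under 0.05. The share of all genes whose groups did not overlap was not determined, so these cases cannot be set against it.

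Compounds were compared in 9 pairs at the same label and in 3 pairs over the 3 labels together. In the fit of group means on all libraries no claudin passed in any of the 12 (edgeR, lowest adjusted p 0.199; DESeq2 also 0), against 1 of all genes (0.00539%) in EtP against MtP over the 3 labels. At a shared label there were 3 claudin values at an unadjusted p under 0.05. They were cldn7a in EtP BMD5 against MtP BMD5 (log2 0.47 ± 0.19, 3.82% of all genes), cldn7a in PrP BMD5 against MtP BMD5 (0.44 ± 0.19, 2.41%) and cldnk in PrP BMD5/50 against EtP BMD5/50 (-0.64 ± 0.29, 3.47%). There was none in PrP BMD5 against EtP BMD5 (1.76%), in the 3 pairs at BMD5/10 (3.12% for EtP against MtP, 1.21% for PrP against MtP and 1.66% for PrP against EtP), or at BMD5/50 in EtP against MtP (6.99%) and PrP against MtP (2.79%). Over the 3 labels together, in EtP against MtP, 9 of 27 claudins had an unadjusted p under 0.05, against 3136 (16.9%) of all genes. Of the 9, 8 were higher in EtP. They were 4 of the 5 gut claudins (cldn15a, cldn15la, cldn15lb and cldnc), cldnk, cldn19, cldn7a and cldnd1b, and the lower one was cldn5b. Of the 27 claudins, 14 had a 95% interval within 1 log2 unit of 0.

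The 4 gut claudins and cldn5b were picked by their unadjusted p in these same data. The libraries numbered 1 were left out because of the difference seen in them. The p-values without them are therefore not independent support. How many of all genes had EtP and MtP libraries without overlap was not determined. Next, the 4 gut claudins were compared in libraries numbered 2 and 3 alone. There cldnc had a lowest, median and highest value of 9.04, 9.97 and 12.8 CPM in the 6 EtP libraries, against 4.90, 6.11 and 6.76 CPM in the 6 MtP libraries, without overlap. In the libraries numbered 1 it had 3.85, 4.05 and 4.41 CPM in EtP, against 3.03, 3.21 and 3.94 CPM in MtP, with overlap. Over all libraries the log2 fold change was 0.70 ± 0.28 (adjusted p = 0.219). Without the libraries numbered 1 it was 0.77 ± 0.13 (edgeR, adjusted p = 0.000972).

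The gene cldn15a had 4.79, 8.19 and 10.9 CPM in the 6 EtP libraries numbered 2 and 3, against 3.0, 3.57 and 5.22 CPM in those of MtP, which overlapped at the ends. In the libraries numbered 1 it had 1.22, 1.81 and 2.07 CPM in EtP, against 0.74, 1.41 and 3.62 CPM in MtP, where the highest value was that of MtP. The log2 fold change was 0.91 ± 0.40 over all libraries (adjusted p = 0.252) and 1.07 ± 0.18 without those numbered 1 (adjusted p = 0.000953). For cldn15la the values were 11, 17.2 and 24.1 CPM against 6.62, 10.26 and 13.7 CPM, and the fold change was 0.69 ± 0.32 and then 0.77 ± 0.15. For cldn15lb they were 3.78, 3.86 and 4.44 CPM against 1.44, 2.09 and 4.33 CPM, and 0.84 ± 0.39 and then 0.82 ± 0.20. The low gene cldn15b had -0.31 ± 0.38 and then -0.35 ± 0.40, past the threshold in neither.

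The brain barrier gene cldn5b had the opposite direction over all libraries and in those numbered 2 and 3. Its 6 EtP libraries numbered 2 and 3 had 7.76, 8.17 and 9.63 CPM, against 10.7, 11.9 and 14.2 CPM in the 6 MtP libraries, without overlap. In the libraries numbered 1 it had 11.7, 12.9 and 15.2 CPM in EtP, against 11.04, 11.4 and 13.8 CPM in MtP. There the median of EtP was the higher one, and the ranges overlapped. The log2 fold change was -0.27 ± 0.12 over all libraries (adjusted p = 0.257) and -0.54 ± 0.09 without those numbered 1 (adjusted p = 0.00143). Whether the difference between EtP and MtP itself depends on the number was not tested.

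Without the libraries numbered 1, 8 claudins passed in EtP against MtP over the 3 labels, 7 higher and 1 lower, against 3714 (19.7%) of 18855 tested genes. Beside the 4 gut claudins and cldn5b they were cldnk (0.44 ± 0.12), cldn10b (0.76 ± 0.18) and cldn23b (0.85 ± 0.28). At BMD5/10 alone the 4 gut claudins passed, with log2 fold changes of 1.64 ± 0.31 for cldn15a, 1.59 ± 0.37 for cldn15lb, 1.37 ± 0.26 for cldn15la and 1.15 ± 0.22 for cldnc, against 482 (2.56%) of all genes. No claudin passed at BMD5 or BMD5/50. These fits leave 2 libraries a group.

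Markers of several tissues moved with these genes, and their part in the result was not tested. Without the libraries numbered 1, 18 of 18 intestine markers had a positive log2 fold change in EtP against MtP and 16 passed (median 1.54), with a summed level of 1171 to 2243 CPM in EtP against 468 to 781 CPM in MtP. The gut claudins summed to 29.7 to 48.7 CPM in EtP, against 16.5 to 30.8 CPM in MtP. Of 16 endothelium and blood-brain barrier markers 15 were positive, 4 passed as higher and 1 as lower (186 to 228 CPM against 149 to 160.0 CPM), while cldn5b was lower. Of 12 myelin glia markers 9 were positive and 3 passed as higher (335 to 408 CPM against 293 to 347 CPM), beside cldnk. All 16 liver markers passed as higher (1943 to 3218 CPM in EtP against 471 to 989 CPM in MtP, median 2.07). Of 17 neuronal markers 5 passed as lower and 1 as higher (3818 to 4183 CPM against 4312 to 4780 CPM, median -0.12). Of 24 skeletal muscle markers 5 passed as higher and 1 as lower (median 0.02).

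**Figure D5:**
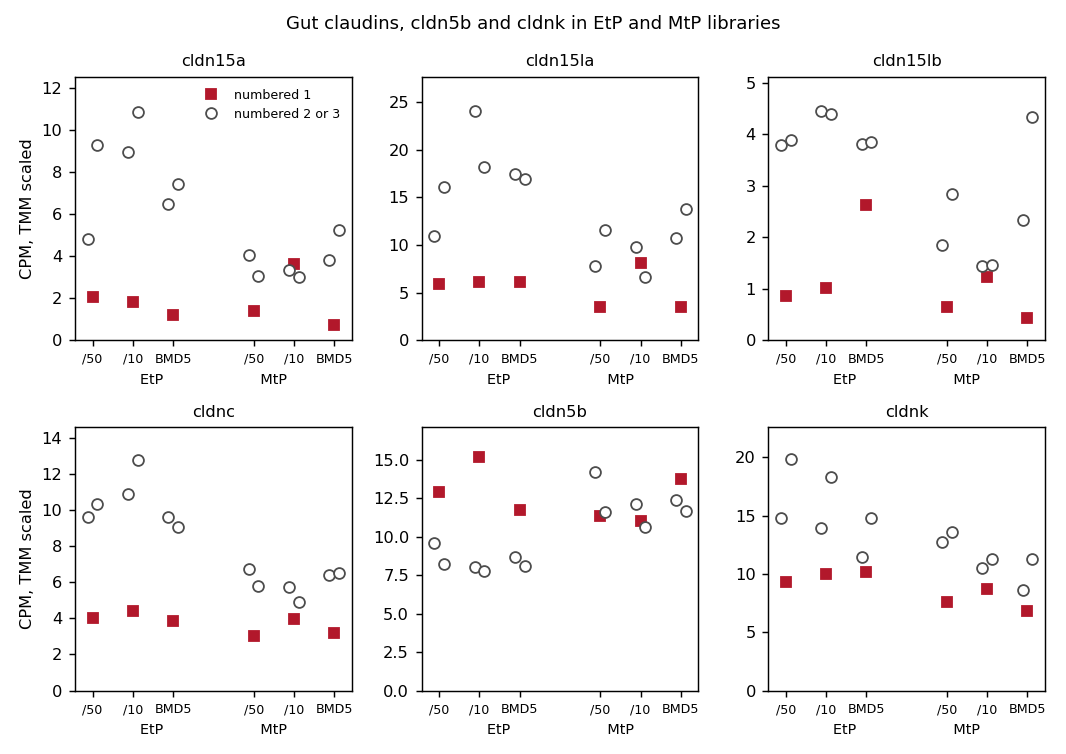
CPM of the 4 gut claudins that passed without the libraries numbered 1, and of cldn5b and cldnk, in EtP (left) and MtP (right) libraries at BMD5/50, BMD5/10 and BMD5; filled squares are libraries numbered 1 and open circles those numbered 2 and 3. For cldnc all 6 EtP circles (9.04 to 12.8 CPM) lie above all 6 MtP circles (4.90 to 6.76 CPM), and for cldn5b all 6 EtP circles lie below all 6 MtP circles.

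No claudin passed between PrP and either other compound with all libraries. Over the 3 labels, 2 claudins had an unadjusted p under 0.05 in PrP against EtP (cldnk -0.42 ± 0.17 and cldn15a -0.84 ± 0.40 on the log2 scale, 4.27% of all genes) and 0 in PrP against MtP (5.5%), and 20 and 21 of the 27 claudins had a 95% interval within 1 log2 unit of 0. Without the libraries numbered 1, cldn15a passed in PrP against EtP at -0.94 ± 0.18 (adjusted p = 0.0298), against 277 (1.47%) of all genes. It had 2.97, 4.10 and 4.97 CPM in the 6 PrP libraries numbered 2 and 3, against 4.79, 8.19 and 10.9 CPM in those of EtP, with overlap at the ends. Set against Control without the libraries numbered 1, the mean of EtP had 2 claudins past the threshold, cldn5b at -0.53 ± 0.13 (adjusted p = 0.043) and cldnk at 0.78 ± 0.19 (adjusted p = 0.0368), against 582 (3.09%) of all genes. That fit holds 2 Control libraries. With all libraries the values were -0.22 ± 0.17 for cldn5b and 0.65 ± 0.25 for cldnk (edgeR, adjusted p = 0.9998 for both). There, 0 claudins passed for the mean of any compound against Control.

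Several members lie next to each other in the genome, in coordinates of the deposited table, for which no build is stated. On chromosome 15 cldne (2638884 to 2640966), cldnf (2650787 to 2652640) and cldna (2655566 to 2657508) lie on the same strand within a run of 26.1 kb that also holds cldnj. In the libraries numbered 1 cldne and cldnf fell by 1.58 and 1.56 on the log2 scale, whereas cldna had -0.27 with a 95% interval of -0.54 to 0.00. On chromosome 21 a run of 38.9 kb holds cldnh (25739295 to 25741411), cldnc (25754268 to 25756119) and cldnb (25765734 to 25766840) together with cldnd, and the first 3 are from 3 different tissue lists. All 3 fell in the libraries numbered 1. On chromosome 10 cldn23a and cldn23b lie within 6.78 kb and differed by -1.21 and -1.31. How reads shared by close copies were counted is not stated, so values of such neighbours are uncertain to that extent.

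The authors' deposited table gives its own yes or no call for each transcript against Control. Of 39 transcripts of the 27 claudins it called 0 to 3 per comparison and 9 in all, against 0.583% to 1.34% of all 59876 transcripts. By the authors' deposited table cldnb was called in MtP BMD5 (log2 -1.07, q = 1), PrP BMD5 (-1.14, q = 0.798) and PrP BMD5/10 (-1.16, q = 1). The other 6 calls of the authors' deposited table were on transcripts of cldn15lb, cldnk and cldni, in both directions. A cldn15lb transcript had -1.64 in MtP BMD5/10, with a q-value of 0.284, the lowest of the 9, and -1.30 in PrP BMD5. The rest were higher: another cldn15lb transcript (3.27) and a cldnk transcript (1.65) in EtP BMD5/10, and that cldnk transcript (1.67) in PrP BMD5/50. A cldni transcript was also higher, at 1.38 in PrP BMD5. Summed over its transcripts, cldni had a mean of 48.3 CPM in PrP BMD5, against 62.8 CPM in Control.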

How the data were processed

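RNA-seq of total RNA from whole larvae gave 30 libraries in 10 groups of 3, grouped and numbered by their titles. Per the file headers, the authors deposited, for each transcript and library, a read count, an RPKM and a TPM value, and the authors' log2 fold changes, p-values and q-values against Control. The deposited counts were used as they stood, the aligner, counter and build being not given in the sources used here. Whether counting used strand is likewise not stated. Counts, and the deposited RPKM and TPM, were summed per symbol with the 3 trailing digits removed. None of the claudins joined several gene IDs (0), and 17 of the 27 carried the same symbol in the gene name reference.

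Tests used the quasi-likelihood fit of edgeR 4.0.16 (TMM, filterByExpr at a minimum count of 10) in R 4.3.3, on all 30 libraries with 10 group means. P-values were adjusted by Benjamini-Hochberg within a comparison, threshold 0.05, over all 18543 genes. The number contrast added the replicate number, and the gap contrast gave each group its own number 1 term. SEs come from the F statistic and intervals are 95%. CPM by group were logged after adding 0.5 for gaps within groups. The test recovered changes put into simulated counts. For a treated group against Control these counts held no effect of the number, and the changes were larger than those of the claudins. The simulation therefore does not show whether changes of the size seen here could be found. DESeq2 1.42.0, RLE scaling, no filter, the replicate block, fits without the libraries numbered 1 and leaving out each library were alternatives.

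The numbers were taken to pair libraries where every correlation of deviations of same-numbered libraries was over 0.1, in 14 of 21 comparisons of 2 groups. The claudins and all lists were chosen with earlier results of these data known. Genes named are the listed ones, the 5 highest by TPM, and per comparison the 2 with the smallest p in each direction. Others were chosen after their values were seen. No library pair held identical counts (0).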

Additional observations from a re-analysis of the deposited data

Results flagged for a closer look

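The gap between the library numbered 1 and the libraries numbered 2 and 3 differed between treated groups and Control for cldnb, in a test of that difference. The p-value of that test rests on the spread between libraries 2 and 3 of all groups. It therefore compares 1 Control library with the treated ones and not the conditions. The log2 gap of treated groups minus that of Control was -1.80 ± 0.24 (SE, edgeR quasi-likelihood test, adjusted p = 0.00761), with 9 of 9 treated gaps below the Control gap. The Control gap is 1 library against 2, and without Control replicate 2 the value was -1.73 and no longer passed, with 0 claudins called. The Control library numbered 1 had 31.4 CPM of cldnb, against 16.1 and 18.0 CPM in the other Control libraries. The epidermis markers summed to 14293 CPM in that library and to 27613 and 29427 CPM in the other Control libraries, and their part in the result was not tested.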

How the results depend on the processing

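RLE scaling changed no call, and DESeq2 or no filter on low counts changed only the gap between treated groups and Control, where DESeq2 called 2 claudins and no filter 3, with cldnb and cldni in both. Without Control replicate 2, left out after the data were seen, it called 0, and leaving out Control replicates 2 or 3 gave 0 to 1. Leaving out any 1 library gave 19 to 23 claudins in the number contrast, and leaving out each library of the groups compared gave 0 in the 27 comparisons between groups and compounds. Without the libraries numbered 1 the counts called were 4 in EtP BMD5/10 against MtP BMD5/10, 2 in the mean of EtP against Control, 8 in EtP against MtP over the labels and 1 in PrP against EtP over the labels. The replicate block called 6 in EtP against MtP over the labels (cldn15a, cldn15la, cldn15lb, cldnc, cldn7a and cldnk, against 2479 genes, 13.4%) and changed no other count. There the numbers do not pair the libraries by the rule, with a lowest correlation of 0.05, and 9 of 18 libraries correlated best with their own number, a hint from the data and not from the design.

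Values that changed sign had none of their forms past the threshold. Without the libraries numbered 1 the log2 value of cldnb was 0.00447 in EtP BMD5 against Control, 0.018 in PrP BMD5/50 against Control and 0.093 in PrP BMD5/10 against MtP BMD5/10, and that of cldn2 was 0.15 in EtP BMD5 against MtP BMD5 and 0.049 in EtP against MtP over the labels. Over the libraries left out in turn, the log2 value ran from -0.52 to 0.0038 for cldnk and from -0.47 to 0.090 for cldnd1a in EtP BMD5 against EtP BMD5/50. It ran from -0.58 to 0.0056 for cldn2 in EtP BMD5 against MtP BMD5, from -0.51 to 0.040 for cldn5b at BMD5/10 and from -0.0014 to 0.84 for cldn19 at BMD5/50 in EtP against MtP. It ran from -0.33 to 0.57 for cldn10b in PrP BMD5/10 against EtP BMD5/10, from -0.88 to 0.016 for cldnb in PrP BMD5/10 against MtP BMD5/10 and from -0.13 to 0.54 for cldna in PrP BMD5/50 against EtP BMD5/50. For cldnd1a it ran from -0.0016 to 0.50 in PrP BMD5/50 against Control and from -0.034 to 0.75 in the gap. The cause was not tested. Depth limits cldn5a, cldn15b and cldn23b most, with 1 to 21 reads per library.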
